A study of Mus musculus with 2 samples.

Results

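The 39 Hox genes of the mouse's 4 Hox clusters were measured by total RNA sequencing of gastrocnemius, the large calf muscle of the hindlimb. They were chosen by name alone, as every gene called Hox with a cluster letter from a to d and a paralogue number, and all 39 were found among the 55536 genes counted, of which 22028 are protein-coding. The Hoxa cluster holds 11 of them, the Hoxb cluster 10, and the Hoxc and Hoxd clusters 9 each. The samples were 2 female B6CASTF1/J mice aged 2 months, a cross of the B6 and CAST strains, with 1 library each from 300 ng of RNA and added ERCC spike-in RNAs. They form 1 group with no contrasting condition and are called animal 1 and animal 2. Per the labels the libraries are biological replicates from mice with different numbers, yet both carry 1 donor record, so if only 1 mouse stands behind it, each SD and difference below is spread within a mouse and may be technical. The gene tables held 45014834 expected counts in animal 1 and 47771283 in animal 2.

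Hox genes encode homeodomain transcription factors that give cells along the body axis and along the limbs their positional identity. Within a cluster the genes lie in the order in which they are switched on and in which they are expressed from head to tail, so that low paralogue numbers mark anterior and high numbers posterior positions. Muscle precursors migrate into the limb bud from the somites, while the connective tissue in which they settle comes from the lateral plate mesoderm, and both carry Hox expression that can persist in the adult.

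The labelled tissue was checked against its defining markers. All 6 markers of skeletal muscle fibres were present. They summed to 62524 and 60071 TPM (transcript abundance as the authors deposited it) in animals 1 and 2. None of 6 cartilage and bone markers and none of 5 neuronal markers reached 1 TPM in both animals. Of 5 skin markers, Krt10 did, at 1.93 and 1.34 TPM, and the other 4 had no read. TPM is scaled to transcript length and is the scale on which the levels of different genes are compared here.

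The member with the highest level was Hoxc10, a posterior gene known for its expression in the hindlimb bud. To show how its DNA-binding region compares with those of its paralogues Hoxd10 and Hoxa10 and of Hoxd8 and Hoxa13, which differ most between the animals among members averaging at least 100 counts, 5 homeoboxes are printed below. Each is 180 bases, coding for the 60 residues of the homeodomain, read from GENCODE M21 transcripts on mm10. Capitals mark bases that differ from Hoxc10.
Hoxc10 homeobox: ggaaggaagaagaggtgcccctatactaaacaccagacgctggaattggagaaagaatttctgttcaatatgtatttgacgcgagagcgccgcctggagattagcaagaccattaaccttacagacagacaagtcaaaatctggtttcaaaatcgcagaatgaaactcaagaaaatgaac
Hoxd10 homeobox: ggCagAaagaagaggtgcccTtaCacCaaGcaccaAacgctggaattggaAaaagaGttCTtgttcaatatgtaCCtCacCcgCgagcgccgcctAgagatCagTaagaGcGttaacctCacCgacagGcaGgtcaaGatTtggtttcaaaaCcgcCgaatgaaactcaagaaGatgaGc
Hoxa10 homeobox: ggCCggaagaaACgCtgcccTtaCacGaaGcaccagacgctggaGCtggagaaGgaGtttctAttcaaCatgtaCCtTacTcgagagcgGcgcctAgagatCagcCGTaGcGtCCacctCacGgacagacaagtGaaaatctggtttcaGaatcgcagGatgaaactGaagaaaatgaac
Hoxd8 homeobox: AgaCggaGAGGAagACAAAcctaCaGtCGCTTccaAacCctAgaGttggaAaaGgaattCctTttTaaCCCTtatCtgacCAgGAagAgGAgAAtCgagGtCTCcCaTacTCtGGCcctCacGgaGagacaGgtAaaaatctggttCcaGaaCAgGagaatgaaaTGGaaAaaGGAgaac
Hoxa13 homeobox: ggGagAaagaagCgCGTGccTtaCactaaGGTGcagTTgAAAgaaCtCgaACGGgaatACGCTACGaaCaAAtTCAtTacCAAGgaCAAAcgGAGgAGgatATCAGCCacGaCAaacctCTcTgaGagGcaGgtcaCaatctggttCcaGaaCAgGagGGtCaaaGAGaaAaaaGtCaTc
The Hoxc10 homeobox lies on the plus strand at chr15:102970848-102971027, in exon 2 of 2. Those of Hoxd10 (chr2:74694141-74694320) and Hoxd8 (chr2:74706525-74706704) are on the plus strand. Those of Hoxa10 (chr6:52232554-52232733) and Hoxa13 (chr6:52258928-52259107) are on the minus strand. Hoxd10 matched Hoxc10 at 149 of 180 bases and Hoxa10 at 145. Hoxd8 matched at 109 and Hoxa13 at 96. The longest run identical to Hoxc10 was 16 bases in Hoxd10 and 14 bases in Hoxa10, and 23 bases over all other members, in Hoxb9.

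Homeoboxes were found in all 39 members, and they resembled each other by paralogue number more than by cluster. Genes with the same number in different clusters shared a median of 80.6% of bases (42 pairs, 67.2% to 93.9%), against 61.7% for genes of the same cluster (172 pairs) and 60.6% for the remaining 527 pairs. Of the 39 members, 31 shared no 100-base stretch of transcript with any other gene on the same strand. The largest shares were those of Hoxd3 (57.8% of 100-base windows) and Hoxd4 (41.1%), mainly with Gm28230, a read-through gene across both. For Hoxc10 the share was 3.81%, with Hoxc5. The deposited posterior SD of the expected count was 0 in both libraries for 32 members and at most 3.31 reads for the other 7.

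Adult calf muscle held a posterior and central Hox pattern at low levels. In both animals 11 of the 39 genes reached 1 TPM, which is 28.2%, below the 46.5% of all protein-coding genes that did so. These 11 were Hoxc10, Hoxd8, Hoxa10, Hoxd9, Hoxa9, Hoxc11, Hoxc6, Hoxc9, Hoxa7, Hoxc4 and Hoxa3 in order of mean level. A further 5 (Hoxa4, Hoxa5, Hoxa11, Hoxa13 and Hoxd10) reached it in 1 animal only, and 23 were under it in both. All 39 together summed to 70.05 and 79.36 TPM in animals 1 and 2, or 0.0156% and 0.0176% of the TPM of protein-coding genes. The plot of levels by cluster shows where these levels lie.

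**Figure D1:**
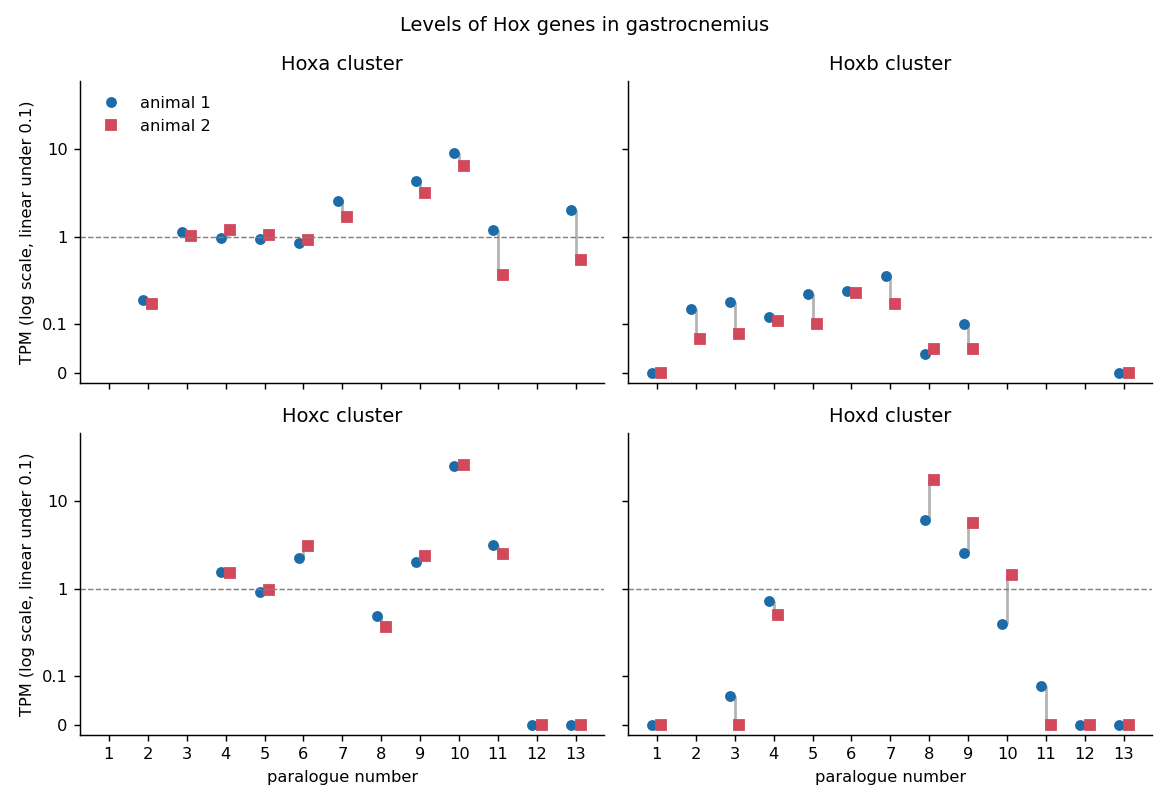
TPM of the Hox genes (vertical axis, logarithmic above 0.1 TPM) against paralogue number, in 1 panel per cluster, with a circle for animal 1, a square for animal 2, a grey line joining them and a dashed line at 1 TPM. Hoxc10 lies highest, at 25.02 and 25.95 TPM, all Hoxb genes lie under 1 TPM, and Hoxd8, Hoxd9 and Hoxd10 lie higher in animal 2.

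Hoxc10 was listed at 25.02 and 25.95 TPM in animals 1 and 2, a mean of 25.5 ± 0.658 TPM (SD, n = 2). This level ranked 1911 among protein-coding genes, above 91.3% of them, and made up 34.2 ± 2.13% of all Hox TPM. It was separate from that of the next gene, since neither animal's value for any other member came within the range of its own. The expected counts behind it were 1705 and 1881. Hoxc10 has a single annotated transcript and spans chr15:102966796-102971893 on the plus strand.

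The other genes of the tenth group stood lower. Hoxa10, a gene of lumbar patterning that also shapes the uterus, had 9.05 and 6.36 TPM in animals 1 and 2 (7.71 ± 1.90). Hoxd10, which is known from hindlimb motor neurons, had 0.40 and 1.43 TPM. The Hoxa10 values did not overlap with those of Hoxc10 above or Hoxd10 below, and the 3 genes of this group together held 45.9 ± 4.73% of Hox TPM.

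Of the ninth group, 3 of 4 members reached 1 TPM in both animals. Hoxd9 had 2.53 and 5.66 TPM in animals 1 and 2 (4.10 ± 2.21). Hoxa9, known in vertebral patterning and in blood stem cells, had 4.39 and 3.15 TPM (3.77 ± 0.877). Hoxc9, a thoracic gene in the spinal cord, had 2.00 and 2.39 TPM (2.20 ± 0.276). Hoxb9 stood apart from these at 0.10 and 0.05 TPM. The ranges of Hoxd9 and Hoxa9 overlapped, so their order is not resolved.

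Among central genes, Hoxd8 had the highest mean, with 6.16 and 17.58 TPM in animals 1 and 2 (11.9 ± 8.08). The animals lay so far apart that the range of Hoxd8 took in that of Hoxa10. Hoxc6, a gene of the brachial and thoracic region, had 2.25 and 3.10 TPM (2.68 ± 0.601). Hoxa7 had 2.57 and 1.68 TPM (2.13 ± 0.629). Hoxc4, a cervical gene, had 1.56 and 1.53 TPM (1.55 ± 0.0212). Hoxc11, Hoxc6, Hoxc9 and Hoxa7 followed each other with overlapping ranges, and all 4 were separate from Hoxc4.

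Anterior genes were represented by Hoxa3, a patterning gene of the pharyngeal arches, at 1.13 and 1.02 TPM in animals 1 and 2 (1.08 ± 0.0778). In animal 1, 0.25 of the 1.13 TPM lay on Hoxa3-202, a 347-base transcript with 2.32 expected counts there and 0 in animal 2. The other 7 members of paralogue numbers 1 to 3 were under 1 TPM in both animals. The highest of these was Hoxa2, at 0.19 and 0.17 TPM.

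At the posterior end, Hoxc11, another hindlimb gene, had 3.14 and 2.48 TPM in animals 1 and 2 (2.81 ± 0.467). Hoxa13, which patterns the hand and foot, had 2.01 and 0.54 TPM (1.28 ± 1.04). Hoxa11, which patterns the forearm and shank, had 1.18 and 0.37 TPM (0.775 ± 0.573). Both were higher in animal 1. Hoxd11, which acts with Hoxa11 in the shank, had 5 reads in animal 1 and 0 in animal 2, against 4.06 and 4.10 estimated counts in the second transcript table. The other 5 of the 9 genes numbered 11 to 13 had no read in either animal in either table. They were Hoxb13, Hoxc12, Hoxc13, Hoxd12 and Hoxd13, and 3 counts, taken as the upper limit of a count of 0, would equal from 0.0308 TPM for Hoxd12 in animal 2 to 0.0855 TPM for Hoxc12 in animal 1. Such limits cover counting error only. Hoxb1 and Hoxd1 also had 0 reads in the gene tables, but the second transcript table gave Hoxb1 9.42 and 9.31 estimated counts and Hoxd1 1 and 0.

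By cluster, Hoxc supplied the most RNA and Hoxb the least. Hoxc genes summed to 35.37 and 36.79 TPM in animals 1 and 2, or 48.4 ± 2.92% of Hox TPM. Most of this was Hoxc10 alone, at 25.02 and 25.95 TPM. Hoxb genes summed to 1.41 and 0.86 TPM, or 1.55 ± 0.657%, and none of the 10 reached 1 TPM. The highest Hoxb gene was Hoxb7, at 0.36 and 0.17 TPM.

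The remaining clusters differed between the animals and changed places. Hoxa genes held 33.3% of Hox TPM in animal 1 and 20.8% in animal 2 (27.1 ± 8.80%). Hoxd genes held 14.2% and 31.7% (22.96 ± 12.4%), and Hoxd8 alone 8.79% and 22.2%. Hoxa was thus the second cluster in animal 1 and Hoxd the second in animal 2, so the order of their means is not resolved.

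By position in the cluster, paralogue numbers 9 and 10 held 59.4 ± 3.81% of Hox TPM, numbers 4 to 8 31.8 ± 7.76%, numbers 11 to 13 6.71 ± 3.45%, and numbers 1 to 3 2.14 ± 0.501%. Numbers 9 and 10 held the largest share in each animal, at 62.1% and 56.7%, and Hoxc10 alone held 35.7% and 32.7%. The share of numbers 4 to 8 was 26.3% in animal 1 and 37.2% in animal 2, and that of Hoxd8 alone 8.79% and 22.2%.

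**Figure D2:**
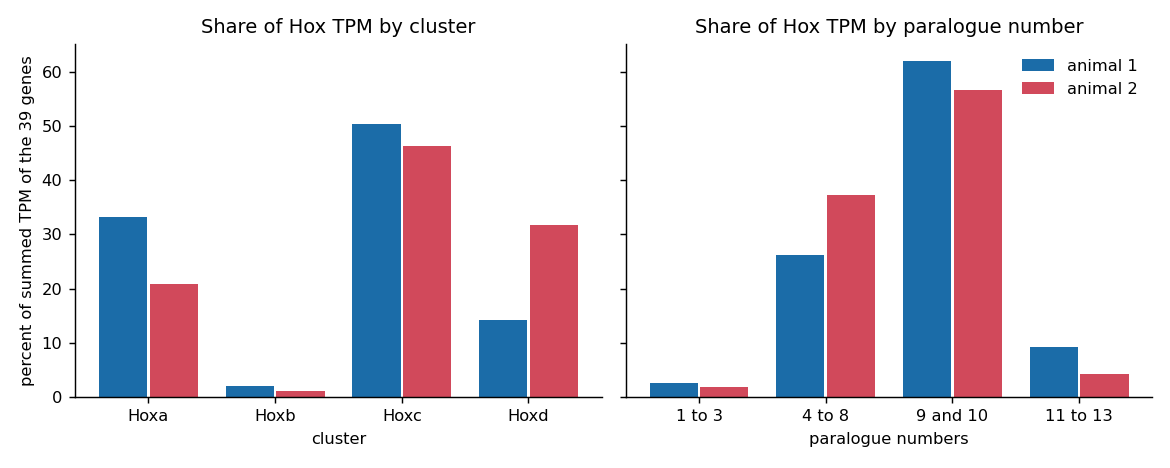
Share of the summed TPM of all 39 Hox genes (percent, axis from 0) by cluster on the left and by class of paralogue number on the right, with 1 bar per animal and no error bar because each bar is 1 library. Hoxc and paralogue numbers 9 and 10 hold the largest share in both animals, while Hoxa and Hoxd exchange second place.

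The animals differed in several members. Each difference is given as the log2 ratio of expected counts, animal 2 over animal 1, scaled by edgeR's TMM factors. It sets 1 library against 1 library, has no replicate check and carries an exact binomial 95% interval for counting error only. In bulk tissue, fewer cells of a type and less RNA per cell cannot be told apart. Of 11 members whose mean count was at least 100, 3 were at least 2-fold apart (27.3%), beside 2.97% of all 10872 genes with such counts. The other 28 members were below that count. The median size of the log2 ratio was 0.37 in these 11 and 0.14 in all genes.

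Hoxd8 and Hoxd9 were the members of this kind that were higher in animal 2, where 0.791% of all genes passed. Hoxd8 had 547 and 1609 reads in animals 1 and 2, a log2 ratio of 1.58 (1.44 to 1.72) or 2.99-fold. Hoxd9 had 194 and 462 reads, a log2 ratio of 1.27 (1.03 to 1.53) or 2.42-fold. Their neighbour Hoxd10 was below the minimum, with 26 and 98 reads and a log2 ratio of 1.92 (1.30 to 2.62). These 3 genes lie side by side. Hoxd4, the other member of the cluster averaging at least 10 counts, had 48.03 and 32.75 expected counts, a log2 ratio of -0.52 whose interval (-1.20 to 0.15) included 0.

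Hoxa13 was the member higher in animal 1, where 2.18% of all genes passed. It had 168 and 46 reads in animals 1 and 2, a log2 ratio of -1.83 (-2.35 to -1.37). Hoxa11, the next gene of the cluster, had 92 and 31 reads and a log2 ratio of -1.53 (-2.18 to -0.94), below the minimum count. About 31.2% of the 100-base windows of Hoxa11 lie opposite the antisense gene Hoxa11os, but the strand setting of the counting is not given in the sources used here, so reads from that stretch may belong to either gene. The deposited posterior SD of Hoxa11 was 0 in both libraries. Hoxa13 has no such overlap. In all, 9 members have windows opposite another gene, with the same limit. Among them are Hoxb3 (49.7%, opposite Hoxb3os) and Hoxa7 (17.0%, opposite Hoxaas3).

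Other Hoxa genes were higher in animal 1 by less. Hoxa7 had 161 and 102 reads in animals 1 and 2, a log2 ratio of -0.63 (-1.01 to -0.27). Hoxa9 had 285 and 219 reads, a log2 ratio of -0.35 (-0.62 to -0.10). Hoxa10 had 566 and 432 reads, a log2 ratio of -0.36 (-0.55 to -0.18). All 3 intervals excluded 0, whereas those of Hoxa3, Hoxa4, Hoxa5 and Hoxa6 included it, with log2 ratios between 0.23 and 0.44. For Hoxa3 the count ratio of 0.28 and the TPM values pointed in opposite directions.

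Hoxc genes stood close together. Hoxc10 was 0.17 (0.07 to 0.26) higher in animal 2 on the log2 scale, Hoxc9 0.37 (0.08 to 0.67) and Hoxc6 0.39 (0.00 to 0.78). The log2 ratio of Hoxc11 was -0.22 (-0.51 to 0.06) and that of Hoxc4 0.07 (-0.31 to 0.46), both with 0 inside the interval. Over members averaging at least 10 counts, the median log2 ratio was -0.19 for 10 Hoxa genes, -0.86 for 5 Hoxb genes, 0.17 for 7 Hoxc genes and 1.43 for 4 Hoxd genes. Summed over each cluster, the log2 ratio of counts was -0.41 (-0.52 to -0.30) for Hoxa, -0.56 (-1.04 to -0.10) for Hoxb, 0.15 (0.07 to 0.23) for Hoxc and 1.44 (1.32 to 1.56) for Hoxd. With all 26 members of that count pooled, the median was 0.05, beside 0.00 for all genes, and 6 of the 26 were 2-fold apart (23.1%), beside 7.61% of all genes. Of these, 3 were higher in animal 2, beside 1.87% of all genes, and 3 in animal 1, beside 5.74%. The sixth is Hoxb3, with 15 and 7 reads and a log2 ratio of -1.02 (-2.61 to 0.31), and with the overlap with Hoxb3os given above. Of 17 members averaging at least 50 counts, 5 were 2-fold apart (29.4%), beside 4.09% of all genes, namely Hoxd8, Hoxd9 and Hoxd10 higher in animal 2 (0.983% of all genes) and Hoxa11 and Hoxa13 higher in animal 1 (3.10%).

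**Figure D3:**
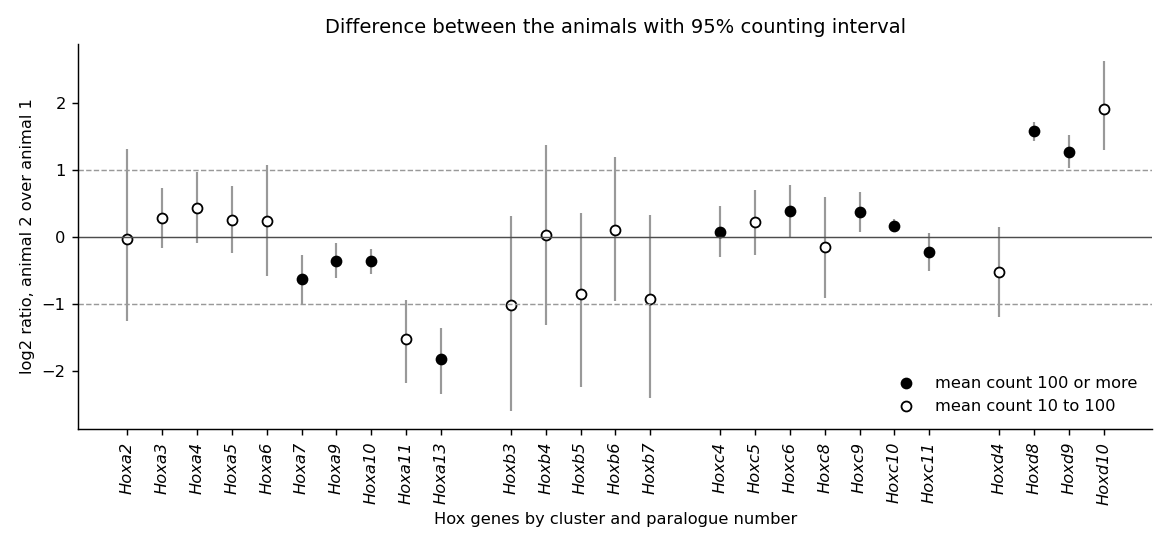
Log2 ratio of expected counts, animal 2 over animal 1 (vertical axis), for the 26 Hox genes averaging at least 10 counts, ordered by cluster and paralogue number. Filled points average 100 counts or more, open points 10 to 100, bars are exact binomial 95% counting intervals, and dashed lines mark 2-fold. Hoxd8, Hoxd9 and Hoxd10 lie above the upper line, and Hoxa11 and Hoxa13 lie below the lower one, with Hoxb3 just under it on a wide interval.

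The scaling moved these values as a block. Scaling by the spike-ins put the median of all genes averaging at least 10 counts at 0.20, and scaling by library size alone put it at -0.11. The sign of Hoxa2, Hoxb4, Hoxb6, Hoxc4 and Hoxc8 changed under 1 of the scalings, all with intervals that included 0, and that of Hoxc4 also changed in the second transcript table. In that table the log2 ratios of Hoxd8, Hoxd9, Hoxd10, Hoxa11 and Hoxa13 were 1.59, 1.22, 1.95, -1.63 and -1.64.

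The libraries also differed in markers of several cell types, which moved beside these results. Animal 1 was higher for all 6 adipocyte markers (summed level 579 TPM against 35.1 TPM, median log2 ratio -3.88) and for all 6 Schwann cell markers (245 TPM against 33.2 TPM, -2.68). Animal 2 was higher for all 6 slow fibre markers (484 TPM against 2666 TPM, median log2 ratio 2.60) and for all 7 tenocyte markers (125 TPM against 226 TPM, 0.95), of which 3 were at least 2-fold apart. The 7 fibroblast markers summed to 1032 and 727 TPM, with a median log2 ratio of -0.41. Of these 7, 2 were at least 2-fold higher in animal 1 and none in animal 2. The 6 pericyte and smooth muscle markers summed to 203 and 112 TPM, and 3 of them were at least 2-fold higher in animal 1. Of all genes averaging at least 10 counts, 1.87% were 2-fold higher in animal 2 and 5.74% in animal 1. Each of these lists had members above 1 TPM in each animal and none at 0 reads in both. Their part in the differences of the Hox genes was not tested.

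Because Hoxd8, Hoxd9 and Hoxd10 were higher in animal 2 together, and Hoxa13 was higher in animal 1, promoters are printed for Hoxd8, Hoxd10 and Hoxa13. Each is the 250 bases before the annotated start, from RefSeq on GRCm38.p6, in which 22 of the 39 members were matched, with 24 promoters. Capitals mark, on either strand, TATAAA (the TATA box core), CCAAT (the CCAAT box core), CCGCCC (the GC box core) and TGATTTAT (a site bound by Hox and Pbx proteins together).
Hoxd8 promoter: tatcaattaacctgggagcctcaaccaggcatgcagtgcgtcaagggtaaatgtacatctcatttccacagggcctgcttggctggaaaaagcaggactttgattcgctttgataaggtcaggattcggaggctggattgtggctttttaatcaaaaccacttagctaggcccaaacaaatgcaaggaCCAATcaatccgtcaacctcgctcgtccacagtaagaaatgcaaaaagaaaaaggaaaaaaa
Hoxd10 promoter: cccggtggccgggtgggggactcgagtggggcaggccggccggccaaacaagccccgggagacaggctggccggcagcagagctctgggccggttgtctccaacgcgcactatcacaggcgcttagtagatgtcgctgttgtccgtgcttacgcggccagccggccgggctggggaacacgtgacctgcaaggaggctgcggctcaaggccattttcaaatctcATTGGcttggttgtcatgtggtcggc
Hoxa13 promoter: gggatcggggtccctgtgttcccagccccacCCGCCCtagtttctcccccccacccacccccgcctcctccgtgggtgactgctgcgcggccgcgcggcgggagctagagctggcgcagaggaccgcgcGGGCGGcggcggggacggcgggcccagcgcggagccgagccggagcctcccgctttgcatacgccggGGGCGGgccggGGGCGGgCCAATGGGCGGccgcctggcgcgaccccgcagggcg
The Hoxd8 promoter is at chr2:74704365-74704614 on the plus strand, and holds 1 CCAAT. It precedes Hoxd8-203, which held 0% and 7.98% of Hoxd8 TPM in the first transcript table, but 27.2% and 44.2% in the second. The leading Hoxd8-201 starts downstream, at position 74704905. The Hoxd10 promoter is at chr2:74691641-74691890 on the plus strand, and also holds 1 CCAAT. The Hoxa13 promoter is at chr6:52260881-52261130 on the minus strand, and holds 1 CCAAT and 5 CCGCCC, of which the CCAAT and 1 CCGCCC lie end to end. It precedes Hoxa13-201, which held 6.74% and 14.61% of Hoxa13 TPM in the first transcript table, and 8.35% and 29.0% in the second. The leading Hoxa13-203 starts downstream, at position 52260803. The G and C content was 44.4% in Hoxd8, 65.6% in Hoxd10 and 80% in Hoxa13. Hoxd9, whose own promoter held 1 CCGCCC and no CCAAT, shared no motif with Hoxd8 and Hoxd10.

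Over the 24 Hox promoters, CCAAT occurred in 14, beside 33.8% of all 32851 promoters of that length. CCGCCC occurred in 10 (32.7% of all promoters) and TATAAA in 4 (12.4%). TGATTTAT occurred in none of the 24, and in 0.837% of all promoters. The median G and C content was 58.6% for Hox promoters and 52.4% for all, and the median ratio of observed to expected CpG was 0.72 and 0.37. Motif matches describe the letters in these windows only.

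Which transcript carried a gene's RNA was read from the authors' percentages. Of the 11 genes that reached 1 TPM in each animal, Hoxc10, Hoxc11 and Hoxd9 have 1 annotated transcript, and in 5 of the other 8 the leading transcript held over 50% in both animals. Hoxd8-201, a coding transcript, held 79.89% and 82.46% of Hoxd8 TPM in the first transcript table (81.2 ± 1.82%), and 52.4% on average in the second. Hoxc9-201 held all of Hoxc9.

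Hoxa10 was the gene of these 11 whose leading transcript is annotated as non-coding. Hoxa10-203, a processed transcript of 1710 bases and 2 exons at chr6:52231199-52233324 on the minus strand, held 75.5% of Hoxa10 TPM in animal 1 and 78.07% in animal 2 (76.8 ± 1.82%). The coding transcripts Hoxa10-201 and Hoxa10-202 held 10.7 ± 2.29% and 11.9 ± 1.34%. In the second transcript table Hoxa10-203 also led, with 56.0 ± 0.632%. Its second exon covers the homeobox printed above. Each of the 4 annotated Hoxa10 transcripts has an exon overlapping that homeobox, so reads there can fit several of them. The 7.71 TPM of Hoxa10 is therefore mostly RNA assigned to a transcript with no annotated reading frame.

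Of these 11, Hoxa7 was the gene whose leading transcript, by mean share, differed between the transcript tables. The first gave its coding transcript Hoxa7-201 81.42% in animal 1 and 62.38% in animal 2. The second gave it 2.86% and 62.3% (32.6 ± 42.0%). There Hoxa7-205, annotated as nonsense-mediated decay, led by mean share, with 97.1% in animal 1. In animal 2 Hoxa7-201 led in both tables. Hoxa9-201 led Hoxa9 with 41.2 ± 1.36% in the first table, and by mean share in the second (33.0%). Within each animal another transcript led in the second table. Animal 1 had 28.5% on Hoxa9-201 and 32.8% on Hoxa9-203, a processed transcript. Animal 2 had 37.4% on Hoxa9-201 and 38.4% on Hoxa9-202. For Hoxc4 the animals differed in the first table, with Hoxc4-202 at 56.57% and 44.07% and Hoxc4-201 at 43.43% and 55.93%. Hoxa3-201 led Hoxa3 with 52.61% and 69.59%, and Hoxc6-201 led Hoxc6 with 64.2% and 48.68%. Outside the 11, Hoxa13-203 (coding) held 89.3 ± 5.56% of Hoxa13, and Hoxa11-202 (a processed transcript) held 54.7 ± 8.42% of Hoxa11.

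The second transcript table gave a similar order of levels. Across the 39 genes within a library, Pearson's r of log2(TPM + 0.1) between the tables was 0.991 in animal 1 and 0.993 in animal 2, and Spearman's rho was 0.984 and 0.980. Genes are not independent replicates, and both tables come from the same libraries. Of the Hox genes, 13 in animal 1 and 14 in animal 2 were at 1 TPM or more in the gene tables. For these, TPM in the second table was higher by a median factor of 1.60 and 1.49. For protein-coding genes at that level the factor was 1.48 and 1.46. In the second table Hoxc10 had 33.9 and 35.1 TPM, and Hoxd8 had 11.8 and 38.98 TPM, so that Hoxd8 passed Hoxc10 in animal 2.

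The genes around the clusters were measured in the same way. The clusters span chr11:96194316-96368256 for Hoxb, chr15:102921103-103036852 for Hoxc and chr2:74668310-74765142 for Hoxd, and Hoxa lies on chromosome 6. The 3 nearest protein-coding genes on each side of the clusters make 24 neighbours. Of these, 19 reached 1 TPM in both animals, beside 46.5% of all protein-coding genes, and the same number averaged at least 100 counts. None of those 19 was 2-fold apart between the animals, beside 2.97% of all genes. The widest log2 ratio was that of Skap2 beside Hoxa, with 2.58 and 1.42 TPM and a log2 ratio of -0.85 (-1.19 to -0.53). Snx10, its neighbour, had 2.72 and 1.57 TPM and a log2 ratio of -0.70 (-1.04 to -0.37). Both were higher in animal 1, as the summed Hoxa genes were, and so was Tax1bp1 at -0.12 (-0.19 to -0.05). Also beside Hoxa, Cbx3 at 0.14 (0.02 to 0.25) and Hibadh at 0.19 (0.12 to 0.27) were higher in animal 2. Beside Hoxd, Lnpk had 21.75 and 20.37 TPM in animals 1 and 2, and Mtx2 had 14.99 and 16.64 TPM. Beside Hoxb, Atp5g1, a subunit gene of ATP synthase, had 587 and 640 TPM. Evx1 and Evx2, the homeobox genes next to the posterior ends of Hoxa and Hoxd, had no read and 1 read in animal 1, and none in animal 2.

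**Figure D4:**
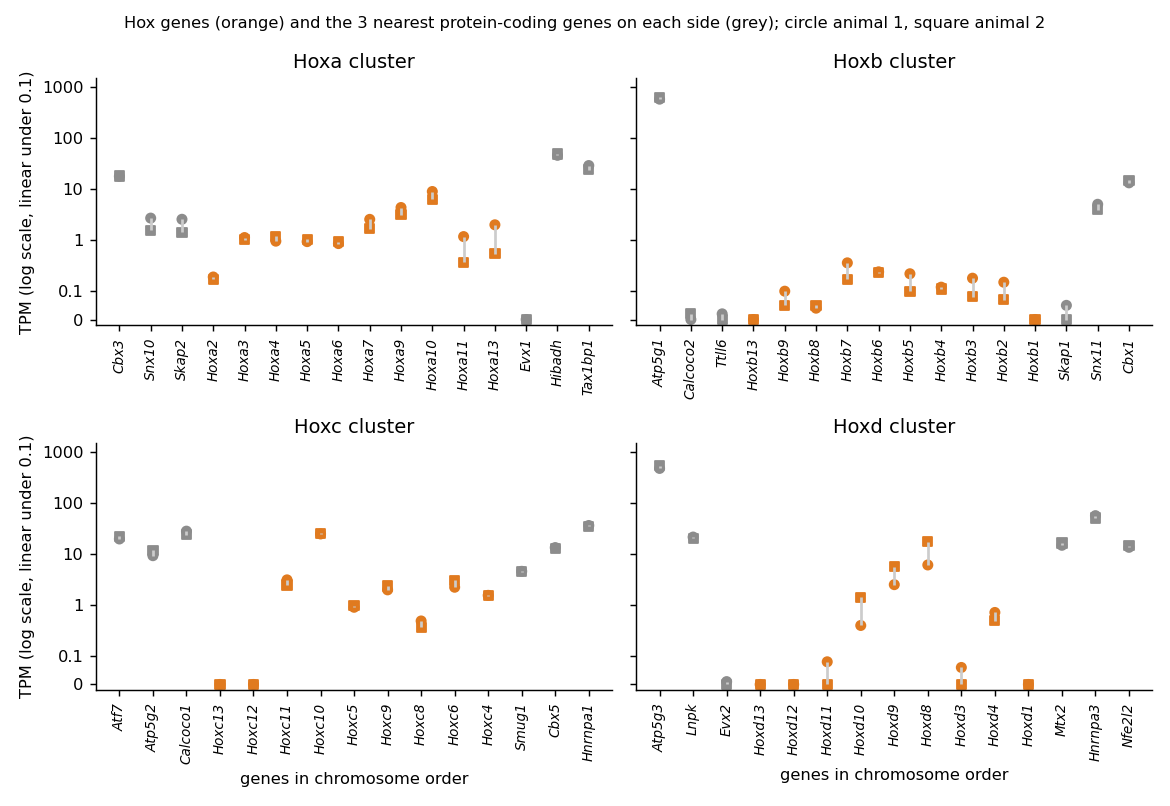
TPM (vertical axis, logarithmic above 0.1 TPM) of the Hox genes in orange and of the 3 nearest protein-coding genes on each side in grey, in chromosome order, in 1 panel per cluster, with a circle for animal 1 and a square for animal 2. The grey genes beside Hoxd differ little between the animals, while Hoxd8, Hoxd9 and Hoxd10 are separate.

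Inside the clusters lie 46 other annotated genes, mostly non-coding, of which 26 had no read in either animal. The 7 microRNA genes were among those without reads. The gene tables take 99 bases off a gene's length before scaling. Several of the microRNA genes and other short RNA genes are shorter than that. Such a gene could hold no read, so its 0 does not show that its RNA is absent. Only Hoxd3os1, an antisense gene across Hoxd3, Hoxd4 and Hoxd8, reached 1 TPM in both animals, with 1.48 and 2.52 TPM in animals 1 and 2. It had 23 and 49 reads, a log2 ratio of 1.10 (0.37 to 1.90), the direction of the Hoxd8 difference. None of the 100-base windows of Hoxd8 lie opposite it.

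Hoxa11os had 1.32 and 0.79 TPM in animals 1 and 2, from 48.46 and 31.34 expected counts, with a log2 ratio of -0.60 (-1.31 to 0.07). Hotairm1, an antisense gene of the Hoxa cluster, had 0.57 and 0.16 TPM from 6 reads and 1 read. The short RNA genes Gm27477 (0 and 0.57 TPM) and Gm27543 (0.52 and 0 TPM) came next, on at most 1.54 expected counts in a library. A pair of genes with more reads was named after its values were seen. The unclassified gene 9530018H14Rik, just downstream of Hoxa13, had 0.35 and 0.04 TPM from 15 and 2 reads, a log2 ratio of -2.61 (-6.05 to -0.78). Hotair, a long non-coding RNA of the Hoxc cluster, had 0.13 and 0.24 TPM from 9 and 18 reads.

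Hox proteins bind DNA with TALE homeodomain partners. Of 9 such genes, 5 reached 1 TPM in both animals, beside 46.5% of all protein-coding genes. Pknox2 had 25.63 and 14.60 TPM in animals 1 and 2, Pbx2 had 5.52 and 5.02 TPM, and Pknox1 had 3.21 and 2.55 TPM. Meis1, a cofactor of posterior Hox proteins, had 1.17 and 1.45 TPM, and Pbx4 had no read. None of the 8 averaging at least 10 counts was 2-fold apart, beside the 7.61% of all genes.

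Of 11 limb identity and mesenchyme factors, 3 reached 1 TPM in both animals, beside 46.5% of all protein-coding genes. Prrx1, of limb mesenchyme, had 25.46 and 23.55 TPM in animals 1 and 2, and Prrx2 had 1.61 and 1.52 TPM. The hindlimb factors Tbx4 (0.43 and 0.64 TPM) and Pitx1 (0.23 and 0.08 TPM) were under 1 TPM, as was the forelimb factor Tbx5 (0.17 and 0.10 TPM). Pitx1, with 20 and 8 reads and a log2 ratio of -1.25, was the 1 of 9 of this list averaging at least 10 counts that was 2-fold apart, beside 7.61% of all genes. Hoxc10 was above each of these factors other than Prrx1 in both animals, and its values overlapped with those of Prrx1.

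Polycomb proteins keep Hox genes silent and trithorax proteins keep them active. Of 16 Polycomb genes, 13 reached 1 TPM in both animals, beside 46.5% of all protein-coding genes. Among them were Bmi1 (22.07 and 19.19 TPM), Eed (16.58 and 14.10 TPM) and Ezh1 (9.91 and 9.27 TPM). All 9 trithorax and H3K27 demethylase genes reached 1 TPM in both animals. They were led by Kmt2d (18.71 and 19.21 TPM), Ash1l (12.60 and 12.78 TPM) and Kdm6a (12.32 and 12.85 TPM). None of the 16 or of the 9 was 2-fold apart, beside 7.61% of all genes averaging at least 10 counts, and their median log2 ratios were -0.01 and 0.11. Of 8 ParaHox and Evx genes, the nearest relatives of the clusters, none reached 1 TPM and 7 had no read.

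**Figure D5:**
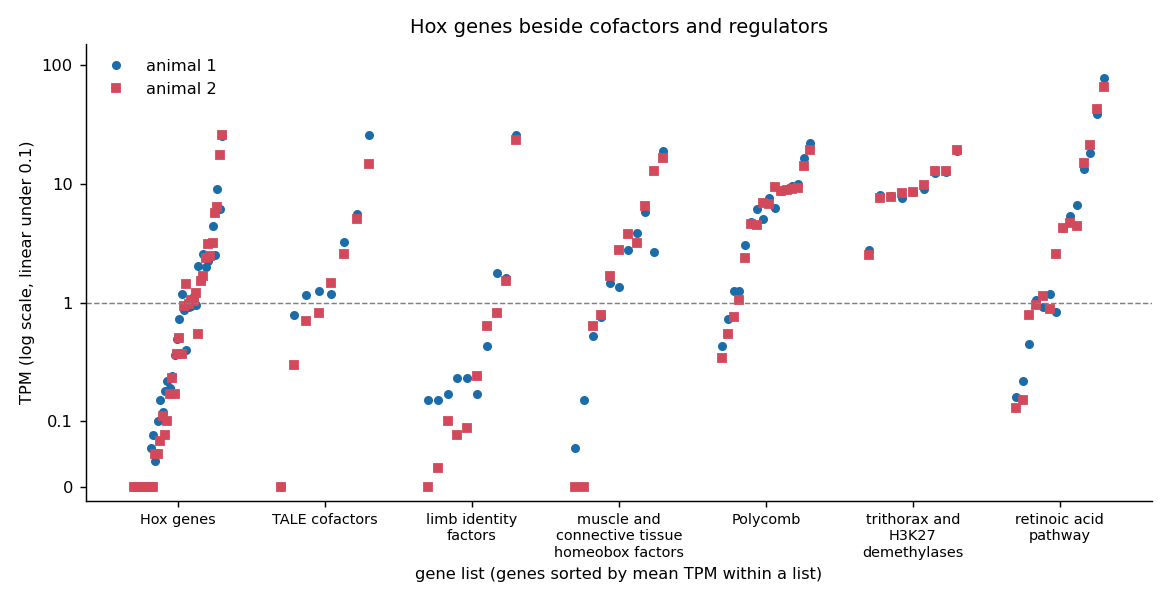
TPM (vertical axis, logarithmic above 0.1 TPM) of the Hox genes and of 6 gene lists, with genes sorted by mean TPM within a list, a circle for animal 1, a square for animal 2 and a dashed line at 1 TPM. All 9 trithorax genes lie above the line, while 11 Hox genes do so in both animals.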

How the data were processed

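Total RNA libraries of gastrocnemius from 2 mice were analysed. For each library the authors deposited a table per gene with expected counts, TPM and posterior SDs. A first transcript table has the same columns plus each transcript's percent of its gene, per the file headers. Estimated counts and TPM make up a second transcript table, per the file headers. The labels name mm10. For the aligner, the counter and the strand setting, nothing was given in the sources used here. Reads of a B6 and CAST cross were counted on a B6 genome, and how far lost CAST reads move a gene was not analysed here. All 55536 gene identifiers were found in GENCODE M21. Kept out of library sizes were 96 spike-in rows, 26248 numbered rows with no gene name (3 and 5 reads, 6.66e-06% and 1.05e-05% of gene counts) and a phiX row.

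With 1 group there was no test and no p-value. Ratios used edgeR's TMM factors from rounded expected counts and a prior count of 0.5. Alternatives were library size alone, spike-in sums, DESeq2's size factors, other prior counts and minimums, the second transcript table, rescaled TPM and each library left out. The comparison of the animals was also run on simulated counts of 55536 genes, with the dispersion set to 0.04 and not estimated from these libraries. Of 200 genes drawn with a log2 ratio of 2 in either direction, 97.5% were recovered. Of the unchanged genes averaging at least 100 counts, 1.70% passed 2-fold. The members and gene lists were chosen with earlier results of these data known. Named were the members, in full those at 1 TPM in both animals or 2-fold apart at a mean count of 100, the 3 highest of each gene list with those it is named for, and the 5 highest other genes inside the clusters. Some genes and sequences that this rule takes in are not reported here and are left out of the plots of single levels. Tools were edgeR 4.0.16 and DESeq2 1.42.0 in R 4.3.3, and matplotlib 3.10.9, scipy 1.17.1, pandas 2.3.3 and numpy 2.4.6 in Python 3.11.15.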

Additional observations from a re-analysis of the deposited data

How the results depend on the processing

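The number of Hox genes detected depended on the threshold. It was 11 at 1 TPM in both animals, 17 at 0.5 TPM, 23 at 10 or more expected counts in each library and 18 when TPM was rescaled to nuclear protein-coding genes, 8 at 2 TPM, 16 in the second transcript table, and from 13 to 14 with 1 library alone. A share of all protein-coding genes was computed only at 1 TPM in both animals (46.5%), so the other counts have none beside them. In the second transcript table the Hoxc share was 42.6% in place of 48.4%. That of paralogue numbers 9 and 10 was 55.5% in place of 59.4%. The number of members 2-fold higher in animal 2 was 2, and 4 with no minimum count. The number 2-fold higher in animal 1 was 1, 2 at a mean count of 50 or more, and 6 with no minimum count. With no minimum count, no share of all genes was computed to set beside the 4 and the 6. Both numbers were the same under the other scalings and prior counts tried and in the second table. The median log2 ratio of 0.05 lay between -0.06 (library size alone) and 0.25 (spike-in sums), and turned negative under library size and in the second table (-0.02). Of the single-gene levels and leading-transcript shares, the second table moved 14 by more than 1 SD and 5 by less.

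With 1 library at a time, shares ranged from 20.8% to 33.3% for Hoxa, 1.08% to 2.01% for Hoxb, 46.4% to 50.5% for Hoxc and 14.2% to 31.7% for Hoxd. By paralogue number they ranged from 1.79% to 2.50% for 1 to 3, 26.3% to 37.2% for 4 to 8, 56.7% to 62.1% for 9 and 10, and 4.27% to 9.15% for 11 to 13. The range of the ratio cannot be given this way, since leaving out a library leaves none to compare. No paired analysis was possible because both libraries belong to 1 group. Members with under 100 reads carry wide counting intervals, and 1 library per animal gives no measure of technical spread.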

Other observations

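Among 12 homeobox factors of muscle and connective tissue, 8 reached 1 TPM in both animals, beside 46.5% of all protein-coding genes. Lbx1, which marks muscle precursors that migrate into the limb, had 18.83 and 16.51 TPM in animals 1 and 2, within 2-fold of each other. Barx2 had 2.66 and 12.74 TPM, from 187 and 953 reads, a log2 ratio of 2.37. Mkx, a tendon regulator that is also among the tenocyte markers, had 1.34 and 2.76 TPM, from 69 and 178 reads, a log2 ratio of 1.39. These were the 2 of 10 genes averaging at least 10 counts that were 2-fold higher in animal 2, the direction of Hoxd8 and Hoxd9, beside 1.87% of all genes.

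Retinoic acid switches on Hox genes in the embryo. Of 14 genes of its pathway, 7 reached 1 TPM in both animals, beside 46.5% of all protein-coding genes. Aldh1a1, a retinaldehyde dehydrogenase, had 77.79 and 64.65 TPM in animals 1 and 2. The receptor genes Rxra (38.57 and 42.47 TPM) and Rxrg (18.23 and 21.36 TPM) came next. Cyp26b1, which degrades retinoic acid, had 0.83 and 2.56 TPM, from 134 and 440 reads, a log2 ratio of 1.74. It was 2-fold higher in animal 2, and the other 11 of the list averaging at least 10 counts were within 2-fold. Of all genes with such counts, 1.87% were 2-fold higher in animal 2 and 7.61% were 2-fold apart in either direction.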
